A study of Mus musculus with 20 samples.

Results

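Between 48 and 72 h without estradiol (E2), mouse ER-Hoxa9-Lys-GFP cells went from 59562 to 46837 listed regions of open chromatin. Of the 48 h peaks, 17836 had no overlapping peak at 72 h, which is 29.9% (95% Wilson interval 29.6 to 30.3%). Of the 72 h peaks, 5542 had none at 48 h, which is 11.8% (11.5 to 12.1%). These 23378 unmatched peaks, out of 106399 in both lists and 504887 in the 10 lists of the series, are described here. They were found by asking of each peak whether a peak of the other list covered at least 1 bp of it, and then whether the 96 h list held it. Peaks near the stem cell factor receptor gene Kit, near Cd34 and across the T cell receptor alpha locus were among those no longer listed. Peaks at genes of the later neutrophil granules, such as Ltf and Cybb, and at the promoters of S100a9 and Stfa2l1 were among those newly listed. These are examples, and S100a9 and Stfa2l1 were chosen after their values were seen. As a list, progenitor genes had 30.6% of their 48 h peaks unmatched, against 29.9% over all genes. The granule genes had 9 of 45 peaks unmatched at 48 h and 8 of 45 at 72 h.

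The cells are C57BL/6 mouse cells cultured with serum and medium conditioned with stem cell factor. The 0 h samples grew with E2, and all others were washed and moved to medium without it for 4, 8, 12, 24, 36, 48, 72, 96 or 120 h, with 2 samples at each time. The transposition reactions of a preparation were made from divided nuclei, so the 2 samples may be technical replicates, and the sources used here do not say how many clones made up the line. One peak list stands for both samples of a time. No comparison here therefore has a spread between replicates or a test, and every interval covers counting error only. Read depth is unknown, so a peak that is not listed was not called at the depth of that list, which does not show that the site was closed, and a peak near a gene is no measure of its expression. In a bulk culture, a weaker site in every cell and an unchanged site in fewer cells cannot be told apart.

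Hoxa9 is a homeobox factor that maintains immature blood progenitors together with partners such as Meis and Pbx proteins. In fusions of this kind the hormone keeps the factor active, and its withdrawal lets myeloid progenitors mature. Neutrophil maturation proceeds from primary granules, filled at the promyelocyte stage, to secondary and tertiary granules, while progenitor genes and cell division are shut off. ATAC-seq uses the Tn5 transposase to cut and tag accessible DNA. A peak is a stretch where cuts accumulate, at promoters and at distal elements such as enhancers. At both times, peaks were assigned to genes of myeloid cells. Mpo had 5 and 5, Prtn3 4 and 4, Ctsg 4 and 4, Spi1 5 and 4 and Cebpa 8 and 7. Lyz2, a lysozyme gene of myeloid cells, had 5 and 4. Genes of other lists had peaks at both times too, such as Irf8 of the monocyte list (12 and 11), Rag1 of the lymphoid list (3 and 3) and Apoa1 of the non-blood list (5 and 4). Listed peaks at such genes therefore do not identify the lineage. No peak of any list was assigned to Hoxa9, so the files hold no check of the fusion itself.

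The promoters below show where the step is cleanest. The first 3 had a peak at 72, 96 and 120 h and none in the 7 lists up to 48 h. The last 3 had a peak in all of those 7 lists and none at 72, 96 and 120 h at that place. In each case the peak covered the whole stretch shown, which is the 250 bases before the RefSeq start site in the sense of the gene (GRCm38.p6, the same sequence as mm10). Capitals mark matches to 1 of 8 short motifs searched on both strands, and the shown matches do not overlap each other.
S100a9: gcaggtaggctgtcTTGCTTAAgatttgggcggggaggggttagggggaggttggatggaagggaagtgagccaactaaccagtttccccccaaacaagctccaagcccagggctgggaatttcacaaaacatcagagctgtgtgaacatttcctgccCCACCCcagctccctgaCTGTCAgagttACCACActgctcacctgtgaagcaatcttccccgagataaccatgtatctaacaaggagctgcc
Stfa2l1: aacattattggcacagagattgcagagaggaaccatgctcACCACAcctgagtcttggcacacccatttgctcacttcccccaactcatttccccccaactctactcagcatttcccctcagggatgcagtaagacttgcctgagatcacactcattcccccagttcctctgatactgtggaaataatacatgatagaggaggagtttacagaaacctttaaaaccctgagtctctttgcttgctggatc
Nr4a1: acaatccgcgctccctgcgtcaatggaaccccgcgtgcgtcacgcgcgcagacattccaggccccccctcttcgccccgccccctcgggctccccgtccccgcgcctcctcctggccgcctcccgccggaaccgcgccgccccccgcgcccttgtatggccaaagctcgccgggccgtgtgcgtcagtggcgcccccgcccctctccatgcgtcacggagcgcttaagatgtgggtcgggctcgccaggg
Mycn: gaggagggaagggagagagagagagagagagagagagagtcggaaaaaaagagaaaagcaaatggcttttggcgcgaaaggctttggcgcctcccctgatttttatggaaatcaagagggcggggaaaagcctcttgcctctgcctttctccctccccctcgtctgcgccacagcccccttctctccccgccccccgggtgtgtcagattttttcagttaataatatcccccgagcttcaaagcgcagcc
F13a1: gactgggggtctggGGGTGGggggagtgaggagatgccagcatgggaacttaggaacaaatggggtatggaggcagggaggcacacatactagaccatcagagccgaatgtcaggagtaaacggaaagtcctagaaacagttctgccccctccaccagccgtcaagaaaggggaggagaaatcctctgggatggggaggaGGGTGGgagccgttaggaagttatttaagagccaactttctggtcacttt
Kcnn4: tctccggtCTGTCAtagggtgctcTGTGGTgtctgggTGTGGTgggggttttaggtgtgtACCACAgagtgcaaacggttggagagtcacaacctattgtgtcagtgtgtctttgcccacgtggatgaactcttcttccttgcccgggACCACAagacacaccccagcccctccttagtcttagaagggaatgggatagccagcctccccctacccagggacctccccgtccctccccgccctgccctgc

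The S100a9 stretch lies on the minus strand at chr3:90695722-90695971. S100a9 encodes a calcium-binding protein that is abundant in neutrophils. Its capitals mark a C/EBP match (TTNNGCAA) that starts 236 bases before the start site, a Kruppel-like match (CCACCC) at 92, a Meis match (TGACAG) at 75 and a Runx match (TGTGGT) at 64. The Stfa2l1 stretch, from a gene of the stefin A family of cysteine protease inhibitors, lies on the plus strand at chr16:36156561-36156810 and has a Runx match at 210. The Nr4a1 stretch, from a gene for an orphan nuclear receptor, lies on the plus strand at chr15:101266596-101266845 and has no match.
The Mycn stretch, at the gene of a MYC family factor, lies on the minus strand at chr12:12941837-12942086 and has no match. The F13a1 stretch, at the gene of the coagulation factor XIII A chain that monocytes and megakaryocytes make, lies on the minus strand at chr13:37049214-37049463 and has Kruppel-like matches at 236 and 50. The Kcnn4 stretch, at a calcium-activated potassium channel gene, lies on the plus strand at chr7:24370013-24370262 and has Runx matches at 226, 213, 190 and 102 and a Meis match at 242. These matches are letters in a window and do not show binding.

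The RefSeq table gave 32817 distinct promoter windows of 300 bases, from 250 before to 50 after each start site. Gained peaks, found at 72 and 96 h but not at 48 h, reached 700 of these windows. Lost peaks, found at 48 h and at neither 72 nor 96 h, reached 561. The C/EBP motif stood in 8.14% of the windows reached by gained peaks, 9.63% of those reached by lost peaks and 10.8% of all windows. The Runx motif stood in 11.4%, 17.5% and 16.8%. The AP-1 motif (TGANTCA) stood in 3.86%, 6.95% and 7.81%, the Meis motif in 15.6%, 18.0% and 19.2%, and the Kruppel-like motif in 35.1%, 39.0% and 31.5%. The motif of Hox with Pbx (TGATTNAT) stood in 1.14%, 1.60% and 3.22%, the Spi1 motif (GAGGAAGT) in 3.86%, 4.81% and 3.20%, and the NF-kB motif in 2%, 1.96% and 1.63%. The median GC content of these windows was 62.7%, 56.3% and 52.7%. Windows reached by peaks that 48 and 72 h shared had a median of 61.3%, a C/EBP share of 8.65%, a Runx share of 12.8% and an AP-1 share of 4.90%. The windows reached by gained peaks were thus close to those of shared peaks in base content and in these motifs.

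Most unmatched 48 h peaks stayed unlisted, and most unmatched 72 h peaks did not last. Of the 17836 peaks of 48 h only, 15825 were absent at 96 h too (88.7%, 88.3 to 89.2%) and are called lost. They made up 26.6% of the 48 h list. The other 2011 were listed again at 96 h (11.3%). Of the 5542 peaks of 72 h only, 2155 were present at 96 h (38.9%, 37.6 to 40.2%) and are called gained. They made up 4.60% of the 72 h list. For comparison, 59.0% of the 72 h peaks shared with 48 h were present at 96 h. On the 48 h side, 59.1% of the peaks shared with 72 h and 44.8% of the whole list were. The 96 h list held only 29806 peaks, so absence there was common for any 48 h peak. The remaining 3387 peaks of 72 h only were absent at 96 h.

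The asymmetry between lost and gained peaks was smaller in lists cut to equal length, but the cut itself sets part of that. When each list kept only the 29806 widest peaks, the number that 96 h has, 7270 peaks of 48 h (24.4%) had no partner at 72 h and 7363 of 72 h (24.7%) had none at 48 h. The near-equal 7270 and 7363 follow from the cut. In the full lists 41726 peaks of 48 h and 41295 of 72 h were shared, so matches were nearly in pairs. With matches in pairs, lists of equal length leave equal numbers without a partner. In those equal lists 5398 peaks were lost and 4208 gained. Both are parts of the near-equal 7270 and 7363, so their smaller excess also follows in part from the cut. The part of list length in the asymmetry was not tested.

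**Figure D1:**
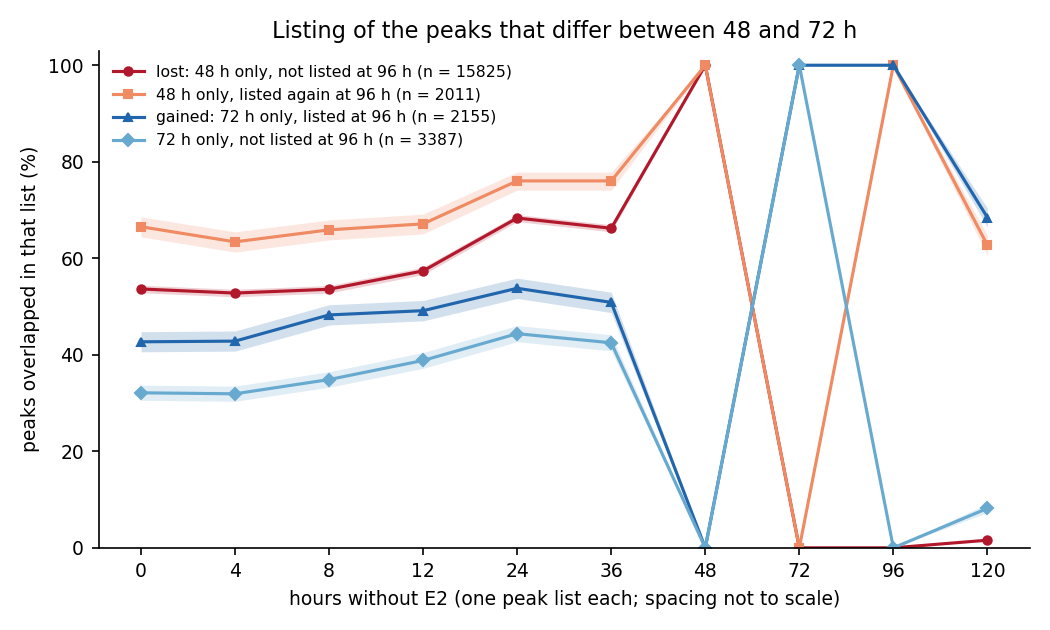
Share of the peaks of each class (y axis, percent) that a peak of each list overlaps (x axis, hours without E2); lines join the 10 lists and bands are 95% Wilson intervals. Gained peaks sit near 50.9% at 36 h, at 0 at 48 h and at 68.4% at 120 h, while lost peaks sit at 1.6% at 120 h; the values at 48, 72 and 96 h are set by how the classes were made.

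Few of the differences were first events. Of the gained peaks, 1096 (50.9%, 48.7 to 53.0%) had been listed at 36 h, 290 (13.5%) in all 6 lists from 0 to 36 h and 513 (23.8%) in none of the lists up to 48 h. The other 1642 gained peaks had thus been listed at least once before 48 h, though most of them not in every earlier list. Over all 72 h only peaks, 3908 (70.5%) had appeared in at least 1 list up to 36 h. Peaks first listed at 72 h were present at 96 h in 513 of 1634 cases (31.4%, 29.2 to 33.7%), and peaks listed before 48 h in 1642 of 3908 (42.0%, 40.5 to 43.6%). At 120 h, 68.4% of the gained peaks were still listed. Of the lost peaks, 8488 (53.6%) had been listed at 0 h with E2, 4134 (26.1%) in all 6 lists from 0 to 36 h and 1902 (12.0%) in none of them. At 120 h, 1.6% of the lost peaks were listed. A strict class of 4052 peaks stood in all 7 lists up to 48 h and in none of 72, 96 and 120 h, and a strict class of 301 was first listed at 72 h and held at 96 and 120 h. Both strict classes were defined after the data had been seen.

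The step lost more of the earlier list than the 2 steps just before it and less than the next. From 24 to 36 h, 18.7% of the earlier list had no later partner, from 36 to 48 h 15.7%, and from 72 to 96 h 43.4%. The share of the later list without an earlier partner was 14.4%, 15.6% and 11.7% in those steps, against 11.8% from 48 to 72 h. Of the peaks that fell out, 61.1% were also absent from the following list after the step from 24 to 36 h, 72.1% after 36 to 48 h, 88.7% after 48 to 72 h and 92.3% after 72 to 96 h. These steps share lists and differ in hours and in list length. The lists from 24 to 120 h held 62559, 59683, 59562, 46837, 29806 and 23620 peaks in order of time. A shorter later list leaves more earlier peaks without a partner, and a shorter following list leaves more peaks absent. The part of list length in these shares was not tested.

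Promoter peaks, within 1000 bp of an annotated start site, were held more often than distal ones. At 48 h, 1594 of 11128 promoter peaks (14.3%, 13.7 to 15%) had no 72 h partner, against 16242 of 48434 distal peaks (33.5%, 33.1 to 34%). At 72 h, 1001 of 10359 promoter peaks (9.66%) and 4541 of 36478 distal peaks (12.4%) had no 48 h partner. An unmatched promoter peak was also more likely to be found at 96 h. This held for 67.3% of promoter and 32.6% of distal peaks of 72 h only, and for 46.4% and 7.83% of those of 48 h only.

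Promoters made up 5.40% of lost peaks (855) and 31.3% of gained peaks (674). In the equal lists the shares were 8.69% and 19.9%. Presence at 96 h, which the classes use, went with the promoter share in both directions. Among the 72 h only peaks that 96 h lacked, as lost peaks do, 9.65% were promoters, and among the 48 h only peaks that 96 h held, as gained peaks do, 36.7% were. The median distance to a start site was 21928 bp for lost peaks, 9148 bp for gained ones, 17534 bp for 72 h only peaks absent at 96 h and 7426 bp for 48 h only peaks listed again. Introns held 45.4% of lost and 34.3% of gained peaks, and intergenic sequence 44.8% and 35.9%. Peaks annotated to a CpG island rather than to a gene feature made up 0.638% of lost and 3.62% of gained peaks.

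Lost peaks were narrow. Their median width was 308 bp (quartiles 258 and 420), against 468 bp for 48 h peaks that 72 h shared. Gained peaks had a median of 582 bp (quartiles 364 and 892), against 499 bp for 72 h peaks shared with 48 h. The 72 h only peaks absent at 96 h had a median of 318 bp, and the 48 h only peaks listed again at 96 h one of 537 bp. Width thus also went with presence at 96 h, which the classes use. Among distal 48 h peaks of 150 to 250 bp, 64.7% had no 72 h partner, and among those wider than 1000 bp, 16.7%. Promoter peaks of 48 h went from 41.8% in the narrowest bin to 8.15% between 751 and 1000 bp. At every width, distal 48 h peaks fell out more often than promoter peaks. The 72 h list did not show this order at every width. At 150 to 250 bp, 37.6% (32.6 to 42.8%) of its promoter and 25.3% (23.9 to 26.8%) of its distal peaks had no 48 h partner. Between 251 and 350 bp the shares were 15.9% and 14.5%, between 351 and 500 bp 10.9% each, and above that distal shares were higher. At 72 h, the share without a 48 h partner was higher again among the widest peaks. It was 12.2% (11.1 to 13.4%) for promoter peaks wider than 1000 bp, against 5.64% between 751 and 1000 bp. Distal 72 h peaks rose too, from 8.17% between 501 and 750 bp to 14.5% (12.3 to 17.0%) above 1000 bp. Promoter peaks of 48 h wider than 1000 bp stood at 10.6%. Width is the only measure of size in the files, since the deposited score of every peak is 0.

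**Figure D2:**
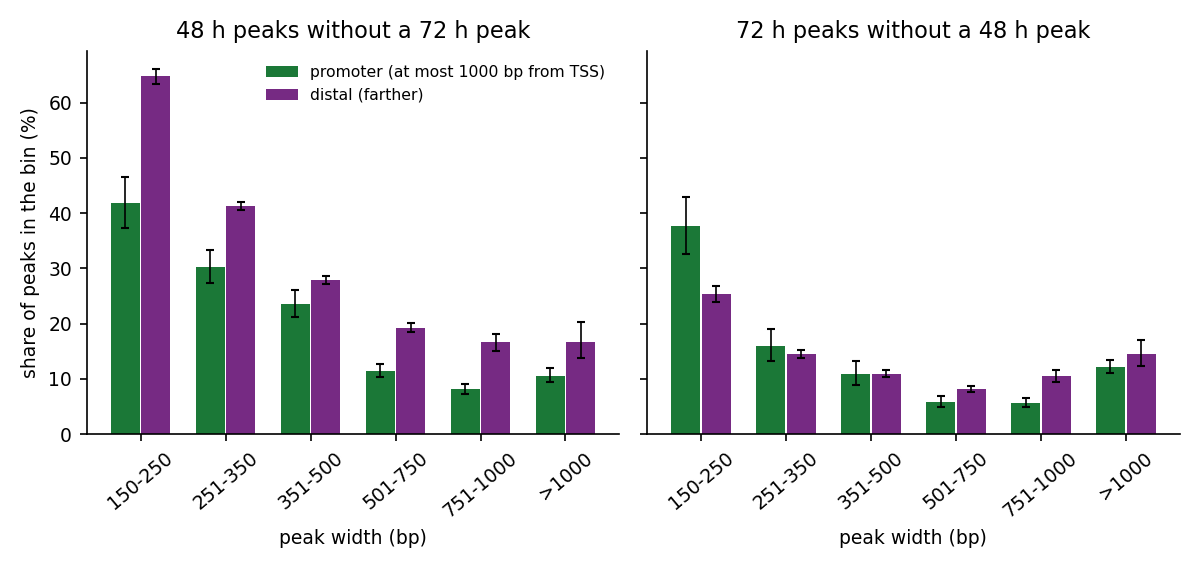
Share of peaks without a partner in the other list (y axis, percent) by peak width in bp (x axis), for promoter and distal peaks of the 48 h list (left) and the 72 h list (right); bars start at 0 and whiskers are 95% Wilson intervals. The share declines from 64.7% to 16.7% over distal 48 h peaks, while 72 h peaks wider than 1000 bp stand at 12.2% for promoters and 14.5% for distal peaks.

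The widest gained promoter peaks had mostly been listed before 48 h. They lay at 4930526I15Rik, an uncharacterised transcript (2130 bp), Cul1, the scaffold of the SCF ubiquitin ligases (2003 bp), Tagln2, an actin-binding protein (1961 bp), Pde3b, a phosphodiesterase (1874 bp), and Pigp, an enzyme of GPI anchor synthesis (1843 bp). Each was absent at 48 h and had been listed in 3 to 6 of the 6 earlier lists. The widest lost promoter peak lay at H1fx, a linker histone gene. It spanned 1987 bp at chr6:87980354-87982340, was listed at all 7 times up to 48 h and was not listed from 72 h on. The peak nearest Hnrnpa1, an RNA-binding protein gene, spanned 1747 bp and was overlapped in 5 lists up to 48 h and again at 120 h. The other 3 of the 5 widest, at Mir1901, Kctd1 and Kcnq5, were listed in 1 to 4 of the 6 earlier lists.

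Repeats of the B2 family of short interspersed elements, which are transcribed by RNA polymerase III, stood out among the lost peaks. B2 elements were the annotation of 1443 lost peaks (9.12%, 8.68 to 9.58%), of 2.67% of 48 h peaks shared with 72 h, of 7 gained peaks (0.325%) and of 3.42% of the 72 h only peaks absent at 96 h. The share was 0.199% among the 48 h only peaks listed again at 96 h. A low B2 share thus went with presence at 96 h, which the classes use. Of the 2545 distal 48 h peaks on B2, 56.5% (54.5 to 58.4%) had no 72 h partner, against 32.3% of other distal peaks. B2 peaks are narrow, so the same was computed for peaks of at most 350 bp, where the shares were 61.5% (59.4 to 63.5%) and 45.1% (44.4 to 45.8%). With the equal lists of widest peaks, which leave out most B2 peaks, the B2 shares of lost and gained peaks were 1.72% and 0.760%. The B2 share of a list lay between 3.91% and 4.31% from 0 to 48 h and was 2.59% in the list of 72 h, 0.691% in that of 96 h and 0.373% in the last. In peaks, the 4 lists from 48 h on held 2561, 1211, 206 and 88. By subfamily, 703 of 1293 B3 peaks, 329 of 618 B3A peaks, 341 of 556 B2_Mm2 peaks and 57 of 68 B2_Mm1t peaks had no 72 h partner. Copies of a repeat are alike, so reads can fit more than 1 place, and the sources used here do not say how such reads were placed. The B2 family was singled out after the data had been seen. Other repeats were nearer to the shared peaks: ERVL-MaLR elements held 5.93% of lost and 4.24% of shared 48 h peaks, ERVK elements 3.05% and 2.07%, and L1 elements 3.07% and 2.53%.

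**Figure D3:**
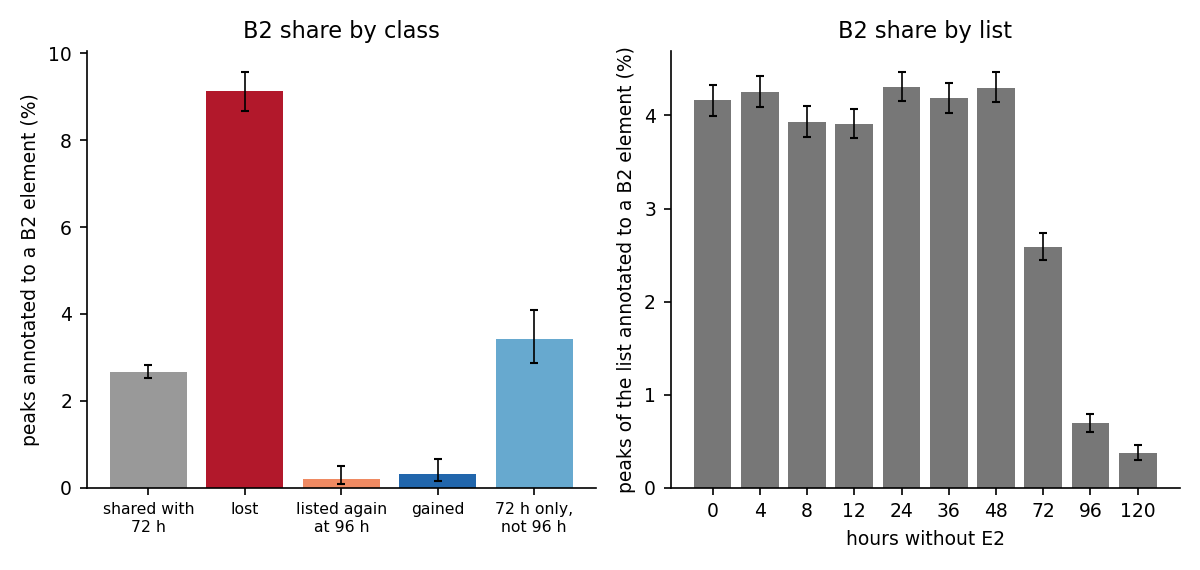
Percent of peaks annotated to a B2 element, by class of peak (left) and by list (right, x axis in hours without E2); bars start at 0 and whiskers are 95% Wilson intervals. Lost peaks stand at 9.12% and gained peaks at 0.325%, and the lists hold 3.91% or more up to 48 h and 2.59% at 72 h.

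The lost peaks included a cluster over the T cell receptor alpha locus. The gene with the most lost peaks was Gm30214, a long noncoding RNA gene on chromosome 14, with 31 of 59, and Dad1, a subunit of oligosaccharyltransferase on the same chromosome, had 11 of 25. Gm30214 lies inside the span that RefSeq gives to Tcra, chr14:52427967-54224198, which holds 119 V segments, and Dad1 lies next to its end. The Tcra span had 75, 77, 84, 90, 89, 88 and 82 peaks in the lists from 0 to 48 h in order of time, and then 43, 10 and 5 in those of 72, 96 and 120 h. Of the 82 peaks of 48 h, 42 were lost (51.2%, 40.6 to 61.7%), and 17 of those had stood in all 7 lists up to 48 h. At 72 h the span had 1 gained peak. None of the 82 was a promoter peak, their median width was 302 bp, and 27 lay on a V segment. Of the 42 lost peaks, 11 lay on a V segment. All peaks of the span without a 72 h partner were lost, so 51.2% is also its unmatched share. Its interval holds the 45.1% of distal 48 h peaks outside B2 elements and of at most 350 bp that had no 72 h partner, although the Tcra peaks are of all widths. V segments have near copies, to which the same doubt about placing reads applies.
The other antigen receptor loci were thinner or lost less. Tcrb had 24 peaks at 48 h, 10 of them lost, and 16 at 72 h. Igh, the immunoglobulin heavy chain locus, had 121, of which 35 were lost (28.9%, 21.6 to 37.6%), and 98 at 72 h. Igk had 18 and 9 peaks, with 7 lost, and had 46 at 0 h.

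Among genes of stem and progenitor cells, all of the 55 unmatched 48 h peaks were also absent at 96 h, as were 88.7% of unmatched peaks overall. The 23 genes of this list with a peak, of 25, had 180 and 141 peaks before and after the step. Their 55 lost peaks were 30.6% (24.3 to 37.6%) of the 48 h peaks, against 26.6% over all genes, and their 5 gained peaks were 3.55% of the 72 h peaks, against 4.60%. In the equal lists they lost 26.6%. Their unmatched share was also 30.6%, against 29.9% over all 48 h peaks, so the list was close to the background. Kit, the receptor of stem cell factor, had 11, 12, 14, 14, 15, 15 and 17 peaks in the lists from 0 to 48 h, and 8, 5 and 2 in the later ones. Its peaks were most numerous at 48 h, and 8 of those 17 were lost. One of these, at chr5:75429252-75429697 upstream of the gene, had stood in all lists up to 48 h, and the intronic 1 at chr5:75589493-75589938 in 3 of the 6 before 48 h.
Cd34, a sialomucin of progenitors, had 5 to 7 peaks up to 48 h and 3 from 72 h on. Its 4 lost peaks included 1 over the first exon, 201 bp after the start site (chr1:194938677-194939367), which a 120 h peak overlapped again. Etv6, an ETS family repressor, had 15 to 28 peaks up to 48 h, 20 at 72 h and 9 at 120 h, with 10 lost. Myb, a factor of proliferating progenitors, went from 7 peaks to 5. All 4 of its unmatched 48 h peaks were lost and its 2 new 72 h peaks were gone at 96 h. Mycn had 2 promoter peaks at 48 h, 1 at 72 h and none afterwards. Gata2, Ikzf2 and Meis1 lost 3 peaks each.

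Genes of the secondary and tertiary granules had the highest share of gained peaks of the 13 lists. Their 18 genes had 45 peaks at each time. Of those, 6 were lost (13.3%, 6.26 to 26.2%) and 6 gained (13.3%, 6.26 to 26.2%), against 26.6% and 4.60% over all peaks, and 4 of the 6 gained ones were first listed at 72 h and held to 120 h. In the equal lists the shares were 11.1% lost and 38.5% gained, against 18.1% and 14.1% over all peaks. Ltf encodes lactoferrin. It had no peak in the lists from 0 to 36 h except 1 at 8 h, then 1, and from 72 h on it had 3, 3 and 4. Its gained peak spanned 528 bp in intron 14, at chr9:111037385-111037912. Cybb, the large subunit of flavocytochrome b558 of the phagocyte oxidase, had at most 1 peak up to 36 h, 2 at 48 h, and then 4, 4 and 3. Both of its gained peaks were first listed at 72 h, 1 of them in intron 3 at chrX:9460412-9460990 and the other at chrX:9470855-9471306, which the deposited annotation calls intergenic.
Cd177, a neutrophil surface glycoprotein, had 1 peak from 24 to 48 h and 2 from 72 h on, the new 1 in intron 3 at chr7:24758518-24758863. Olfm4 and Arg2 gained 1 peak each, and Arg2 also lost 1. Olfm4 had 3 peaks at 0, 4 and 36 h, 1 at 48 h and 2 at 72 h. Chil3, Ngp, Padi4, Cyba and Mmp8 lost 1 each. Camp, Lcn2 and Mmp9 had 1, 2 and 2 peaks at both times. S100a9, named after its values were seen, had 2 or 3 peaks up to 36 h and 4 at both 48 and 72 h. The peak over its promoter, 583 bp at chr3:90695503-90696085, was listed only from 72 h on.

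Genes of the primary granules, which come earlier in maturation, went from 67 peaks to 53. Of these, 16 were lost (23.9%, 15.3 to 35.3%) and 3 gained (5.66%, 1.94 to 15.4%), near the 26.6% and 4.60% over all peaks. Serpinb1a, an inhibitor of neutrophil serine proteases, accounted for 5 of the lost peaks: it had 10 to 14 peaks up to 48 h, 7 at 72 h and 5 at 120 h. Of those 5, 4 had stood in all lists up to 48 h. Elane, the gene of neutrophil elastase, went from 2 peaks to 1. Prtn3 and Ctsg, which encode the related proteases proteinase 3 and cathepsin G, had 4 peaks in each of the 8 lists from 0 to 72 h. At 96 h Prtn3 had none and Ctsg had 1.

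Other neutrophil genes lost and gained peaks side by side. The surface and chemotaxis list went from 158 peaks to 136, with 31 lost (19.6%, 14.2 to 26.5%) and 11 gained (8.09%, 4.58 to 13.9%), against 26.6% and 4.60% over all peaks. The interval for gained peaks reaches down to the overall share. Clec7a, the beta-glucan receptor Dectin-1, had no peak at 48 h and 3 at 72 h, of which 2 were gained. Fpr1, a formyl peptide receptor, went from 1 to 2 peaks and Ltb4r1, a leukotriene receptor, from 1 to 3, with 1 gained each. All 3 genes had peaks in earlier lists: Clec7a 1 at 0, 12 and 36 h, Fpr1 3 at 8 h, and Ltb4r1 3 at 24 h and 2 at 36 h. Il1r2, the decoy receptor of interleukin 1, lost 4 of 14 peaks, and Tlr2, a Toll-like receptor, 3 of 11. Cxcr2 lost 3 of 6 and gained 1. The oxidase list lost 6 of 49 peaks (12.2%, 5.73 to 24.2%) and gained 4 of 45 (8.89%, 3.51 to 20.7%), 2 of the 4 at Cybb.

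The inflammatory and NF-kB list lost 34 of 166 peaks (20.5%, 15 to 27.3%) and gained 4 of 132 (3.03%, 1.18 to 7.53%), and both intervals hold the overall shares of 26.6% and 4.60%. Map3k8, a kinase of the NF-kB and ERK pathways, lost 4 of 13, Nfkb2, an NF-kB subunit, 3 of 5, and Tnfaip3, which restrains NF-kB signalling, 3 of 12. Myeloid transcription factor genes lost 70 of 347 (20.2%, 16.3 to 24.7%), below the 26.6% over all peaks, and gained 13 of 301 (4.32%, 2.54 to 7.25%), near the 4.60%. Runx1 went from 30 peaks to 21, with 10 lost and 1 gained, and Runx2 from 18 to 14, with 8 lost and 1 gained. Jun lost 4 of 22. Klf4 gained 2 and lost 3, and went from 17 to 19. In the equal lists, gained peaks outnumbered lost ones at Runx1, Tlr2 and Tnfaip3.
Macrophage and monocyte genes lost 35 of 129 (27.1%, 20.2 to 35.4%) and gained 9 of 112 (8.04%, 4.29 to 14.6%), and both intervals hold the overall shares of 26.6% and 4.60%. Irf8, which directs monocyte fate, had 12 and 11 peaks, then 5 at 96 h and 1 at 120 h. Marco, a scavenger receptor, lost 3 of its 5.

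**Figure D4:**
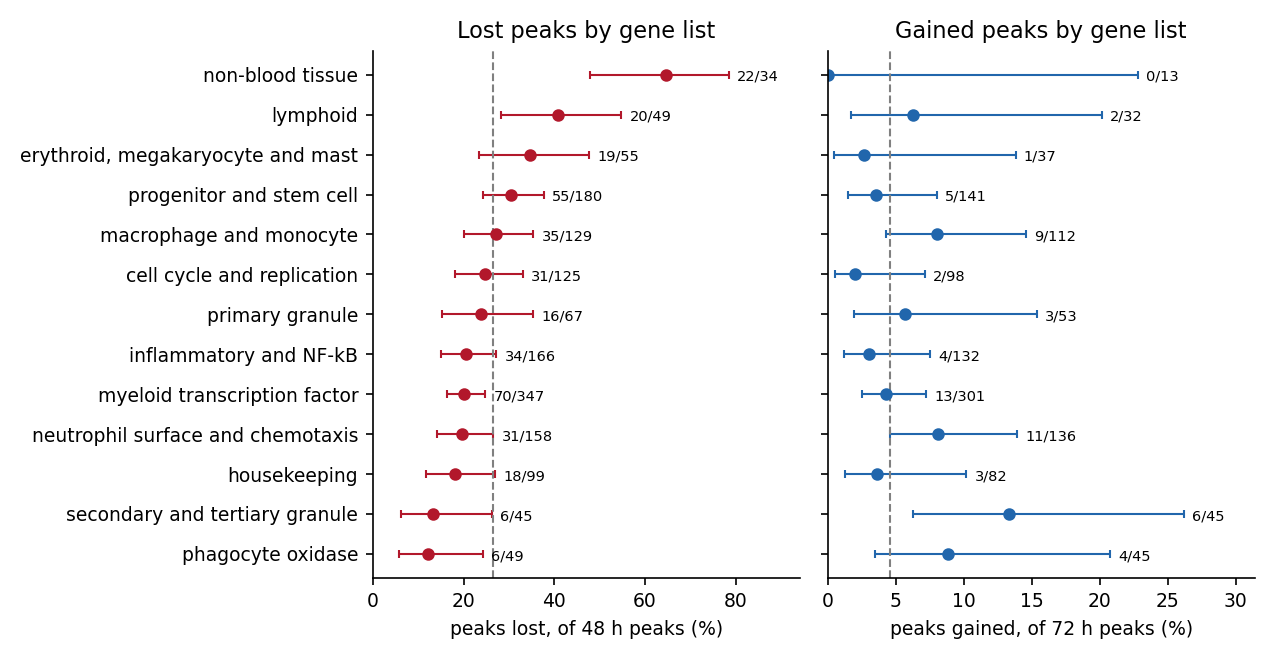
Percent of the 48 h peaks of each gene list that were lost (left) and of its 72 h peaks that were gained (right), with counts beside the points; whiskers are 95% Wilson intervals and the dashed lines mark all genes (26.6% and 4.60%). Non-blood genes stand at 64.7% lost and secondary and tertiary granule genes at 13.3% gained.

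Among genes of other lineages, the non-blood and lymphoid lists lost larger shares of their peaks than the 26.6% over all peaks. The 16 genes with a peak from a list of 24 non-blood genes went from 34 peaks, none at a promoter, to 13. Of the 34, 22 were lost (64.7%, 47.9 to 78.5%), and none of the 13 was gained. In the equal lists 45.5% were lost. Foxa2, a factor of endoderm, had 3 to 5 peaks in the lists up to 48 h and none from 72 h on. Its 4 lost peaks were 248 to 354 bp wide and intergenic. Lymphoid genes lost 20 of 49 (40.8%, 28.2 to 54.8%, and 33.3% in the equal lists), with Rag2, a recombinase gene, at 5 of 8. Erythroid, megakaryocyte and mast cell genes lost 19 of 55 (34.5%, 23.4 to 47.7%), an interval that holds the overall share, with Alas2, the enzyme that starts erythroid haem synthesis, at 2 of 2. The lists differ in promoter share: 0% of 48 h peaks in the non-blood list, 16.3% in the lymphoid list and 29.3% in the housekeeping list, against 18.7% over all peaks. The part of promoter share and width in the values of the lists was not tested.

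Cell cycle and replication genes lost 31 of 125 peaks (24.8%, 18.1 to 33%) and gained 2 of 98 (2.04%, 0.561 to 7.14%), and both intervals hold the overall shares of 26.6% and 4.60%. Ccnd1, the cyclin D1 gene, had 6 to 8 peaks up to 48 h and 3 at 72 h, with 4 lost. Ccnd3 went from 11 to 7. Cdk6, the kinase partner of D cyclins, had 19 and 18 peaks, yet 6 were lost and 6 were new at 72 h, and none of the new ones was listed at 96 h. Housekeeping genes, as a reference, lost 18 of 99 (18.2%, 11.8 to 26.9%) and gained 3 of 82 (3.66%, 1.25 to 10.2%). Of the 298 places in the 13 lists, held by 291 genes, 266 genes had a peak at 48 or 72 h and 25 had none.

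Over single genes, 9130 had a lost peak, 1895 a gained peak and 1059 both. At 72 h, 8851 genes had fewer peaks, 2017 more and 7199 as many as at 48 h. The genes with the most lost peaks after Gm30214 were Mir6388 (14 of 57, but with more gained than lost peaks in the equal lists), Oxr1, an oxidation resistance gene (13 of 27), Efna5, an ephrin (12 of 29), and Mir582 (12 of 25). Slc45a1, Dad1, Spata13 and Auts2 lost 11 each, and Etv6, Fbxw7 and Runx1 10 each. Spata13, a guanine nucleotide exchange factor gene, had 13 to 19 peaks up to 48 h, 5 at 72 h and 3 at 120 h. Fbxw7, whose product marks cyclin E, Myc and other proteins for degradation, went from 18 peaks to 7 in the step and to 2 by 120 h. These genes lie in long stretches with many peaks, so a count of lost peaks also follows how many a gene had.

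The highest number of gained peaks at a gene was 4, at Rps6ka1, Zfp608, Gm46545 and Dhrs3. Each of these also lost 2 to 4. Rps6ka1 encodes a ribosomal S6 kinase and went from 12 peaks to 14, and 1 of the gained peaks was a promoter peak of 1300 bp, listed in 4 of the 6 lists up to 36 h. Further genes gained 3 each, of which 8 are named here by the rule for ties. Wfdc21, a whey acidic protein family gene, had none in the lists of 0 to 12 h, then 2, 4 and 0 in those of 24, 36 and 48 h, and 5, 3 and 2 in those of 72, 96 and 120 h. Of the 5 peaks at 72 h, 2 had been listed at 24 and 36 h, 1 at 36 h and 2 in no earlier list. One of the gained peaks, 331 bp in intron 1 at chr11:83747766-83748096, was first listed at 72 h. Mef2d, a MADS box factor, had 3 to 5 peaks from 0 to 36 h, 1 at 48 h and 5 at 72 h, and its promoter peak of 953 bp was absent from the 48 h list alone up to 120 h. Ptprj, a receptor tyrosine phosphatase, went from 9 to 12, Tg from 7 to 9, Sp110 from 9 to 11, 1700016C15Rik from 4 to 6 and Gm12070 from 6 to 11. The 3 gained peaks of Mir101c were all on GSAT_MM satellite repeats at chr9:3002008-3033905, where all 25 of its 72 h peaks lay, and reads from copies of a satellite cannot be placed with certainty.

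**Figure D5:**
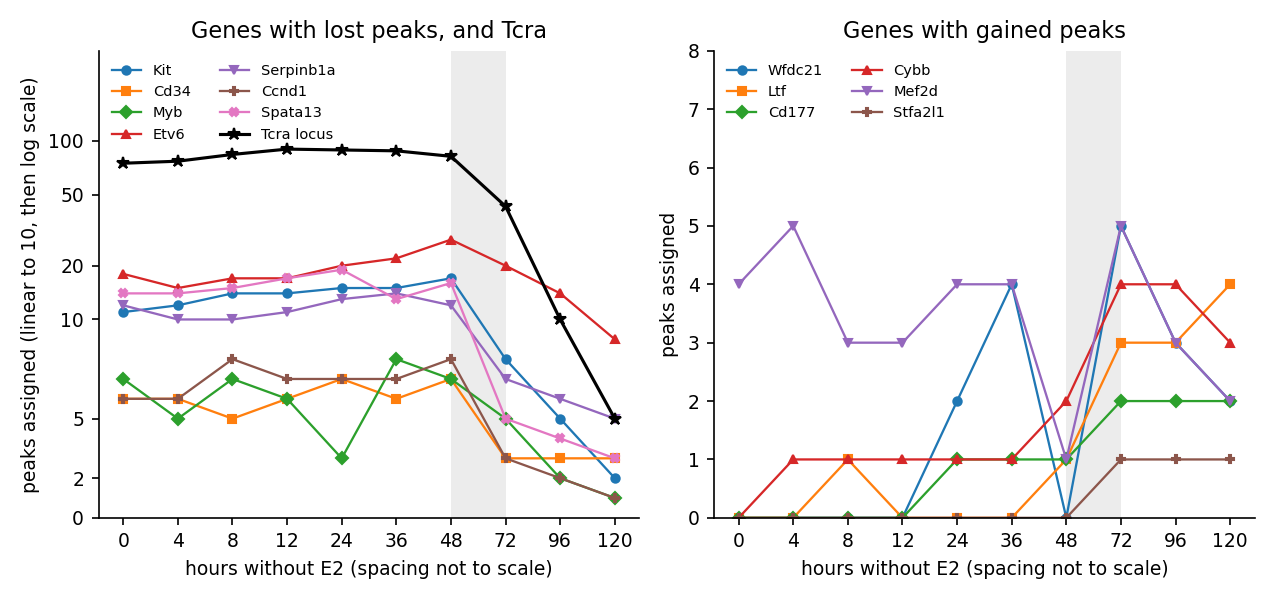
Peaks assigned to each gene, and peaks in the Tcra span (y axis; left panel linear to 10 and then logarithmic), in the 10 lists (x axis, hours without E2); the grey band marks the step from 48 to 72 h and each point is 1 list. Tcra goes from 82 to 43, Kit from 17 to 8 and Spata13 from 16 to 5, while Wfdc21 goes from 0 to 5 and Ltf from 1 to 3.

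The 301 peaks that were first listed at 72 h and held at 96 and 120 h were spread over many genes. Only Notch2, a receptor of cell fate decisions, had 3 of them, at chr3:97991496-97991831, chr3:97998218-97998668 and in intron 1 at chr3:98031216-98031646. The Notch2 gene lost 5 other peaks in the step and went from 17 to 15, and in the equal lists its gained peaks outnumbered its lost ones. Of the 301, 26 (8.64%) were promoter peaks. The widest lay at Kmt2d, a histone methyltransferase (1328 bp), and others at Slamf6, a receptor of the SLAM family (612 bp), S100a9 (583 bp), Parvg, an adhesion protein (554 bp), and Stfa2l1. Stfa2l1 had no peak in any list up to 48 h and 1 of 455 bp at chr16:36156453-36156907 at 72 h. It had 1 at 96 and 120 h as well. Nr4a1 had 2 of the 301, the promoter peak of 373 bp and another at chr15:101256905-101257154, and went from 6 peaks to 7.
Among the 4052 peaks that stood in all lists up to 48 h and in none afterwards, 184 (4.54%) were promoter peaks. They included the peaks at H1fx, Mycn (476 bp), F13a1 (1054 bp) and Kcnn4 (648 bp). F13a1 went from 14 peaks to 8. Cebpg, a C/EBP family gene, went from 8 peaks to 3 and then to 1 and 0, and its peak of 967 bp, 218 bp after the start site, was in this class. Their median width was 346 bp, and their B2 share was 7.35%.

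Unmatched peaks were found on all chromosomes. The share of 48 h peaks without a 72 h partner ran over the autosomes from 24.7% on chromosome 19 to 33.1% on chromosome 18 and was 32.9% on X. Over the 1209 windows of 1 Mb with at least 20 peaks at 48 h, the median window lost 25.8% (quartiles 20 and 32.4%), and 3 windows lost none. The window with the highest share, chr5:132000001-133000000 with Auts2, lost 14 of 21. Some unmatched peaks had a near neighbour in the other list, within 1000 bp for 20.3% of the 72 h only and 9.69% of the 48 h only peaks. Within 200 bp the shares were 6.59% and 2.15%.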

How the data were processed

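Accessible DNA was profiled by ATAC-seq in 2 cultured samples at each of 10 times. The 10 deposited peak lists, 1 per time, were used. The tools named, per the submitters' processing notes, are MACS2 2.0, STAR 2.5 and BWA, each without a role. Per the file headers, peaks were annotated with HOMER against mm10, whereas the processing notes name mm9. Pooling of replicates, thresholds and any Tn5 shift are not given in the sources used here. The score that the authors deposited for each peak is 0 throughout. Starts, ends, distances to a start site, annotations and nearest genes are used as deposited, and coordinates count from 1.

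Peaks matched when they shared at least 1 bp. Overlap code was compared with a plain search over all pairs on simulated lists, and both gave the same answer for 100% of 1200 peaks. Shares carry 95% Wilson intervals, computed with Python 3.11.15, numpy 2.4.6, pandas 2.3.3 and scipy 1.17.1. With 1 list a time no test was possible. The members and gene lists were chosen with earlier results of these data known. Genes named are the 12 with most gained and the 12 with most lost peaks, up to 4 of each list by the difference of gained and lost peaks, the genes of the 5 widest gained and lost promoter peaks, Lyz2 and Hoxa9. Others named were chosen after their values were seen, as were the antigen receptor loci. Promoters and gene spans came from RefSeq (GRCm38.p6). Alternatives changed the overlap rule, list length, narrow peaks, chromosomes, the promoter distance and the gene window. Some genes that the rule names are not reported here.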

Additional observations from a re-analysis of the deposited data

How the results depend on the processing

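No paired analysis was possible because each time has 1 list for both samples, and for the same reason no replicate could be left out. The counts of unmatched, lost and gained peaks stayed within 1.5 times of the reported values under an overlap of at least 50%, a gap of up to 200 bp, without the narrowest 25% of each list and without chromosomes X and Y. With lists of the 29806 widest peaks they moved to 7270 48 h peaks without a partner, 5398 lost and 4208 gained. Fewer peaks were tested there, yet the gained count rose, and the gained share went from 4.60% to 14.1%. The lost share went from 26.6% to 18.1%. In those lists promoters were 8.69% of lost and 19.9% of gained peaks, median widths 502 and 529 bp, and B2 shares 1.72% and 0.760%. Without the narrowest 25%, promoters were 6.25% and 37.1%, median widths 393 and 687 bp, and the B2 share of lost peaks 3.24%. With a gap of 200 bp promoters were 4.84% of lost peaks, and with promoters within 500 bp 3.29% and 27.4%. Promoter shares stayed higher, and B2 shares lower, among gained peaks in each of these settings. Each setting still used presence at 96 h to define the classes, so these contrasts are no check apart from that rule. Of the 13 gene lists, 5 to 6 lost and 5 to 8 gained a larger share than all peaks over the settings tried. Gained minus lost peaks were compared over the 94 genes picked by the rule or chosen later. In the equal lists 57 of them kept their sign, 24 fell to 0, 9 changed sign and 4 had been 0 before. The changed values there were 2 at Mir6388, 3 at Msr1 and 1 at Runx1, Padi4, Mmp8, Srgn, Tlr2, Tnfaip3 and Notch2. Without narrow peaks the sign changed to -1 at Mir101c and 1 at Tlr2, and with genes within 50 kb to 1 at Cul1. Depth is unknown, so it cannot be said which absent peaks lie below the calling limit.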
